A study of Homo sapiens with 6 samples.

Results

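The genes described here encode the TGF-beta, BMP and activin pathway: its ligands, the proteins that store or block them, the receptors, the SMAD proteins that carry the signal, their inhibitors and a small set of direct target genes. They were chosen by name, as the rows of the deposited count table whose gene symbol stands in a list of 55 symbols. All 55 were found, among 16720 named rows. The RNA came from Hep3B, a cell line derived from a human hepatocellular carcinoma. A group of 3 libraries came from cells that received a control guide (sgControl, labelled WT) and a group of 3 from cells labelled as RFX6 knockout (sgRFX6). RFX6 is a transcription factor of the RFX family, known for its part in the formation of pancreatic islet cells. Both groups carried a lentiCRISPRv2 vector, which expresses Cas9 with the guide RNA, and were selected with puromycin, and cells grown from single clones were picked. The sources used here do not say whether the sgRFX6 libraries come from 1 clone or from several, so the knockout and the choice of clone cannot be told apart. They also do not say whether the 3 libraries of a group came from separate cultures, so the p-values measure the spread between these libraries, which may be technical.

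The RFX6 guide printed here is sg3 of the paper, written 5′ to 3′ without its PAM. It was matched to the sgRFX6 group by the sg3 in the names of that group's count columns, since the sample titles name no guide number.
RFX6 sg3: gtgaaggagtttgcttacca

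Ligands of the TGF-beta superfamily are secreted as dimers and bind pairs of type I and type II serine/threonine kinase receptors. TGF-beta and activin receptors phosphorylate SMAD2 and SMAD3, BMP receptors phosphorylate SMAD1, SMAD5 and SMAD9, and both sets join SMAD4 to regulate genes in the nucleus. In the liver, TGF-beta drives matrix production by stellate cells and restrains hepatocyte growth, and BMP6 is the ligand through which iron stores raise hepcidin.

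Between 16730374 and 25070770 reads were counted per library, so that 3 counts correspond to 0.122 to 0.189 CPM (a gene's counts scaled to a common library size). RFX6 itself was measured at 5.64, 5.83 and 7.34 CPM in the sgControl libraries and at 3.43, 3.71 and 3.5 CPM in the sgRFX6 libraries. The groups did not overlap, and the log2 fold change was -0.82 (SE 0.26), with an adjusted p of 0.142 in edgeR's quasi-likelihood test. The sgRFX6 libraries therefore still held RFX6 reads, and a count of reads does not show whether the protein was made. According to the paper, Western blots and real-time PCR showed the efficiency of the knockout in Hep3B cells. The hepatocyte transcription factor HNF4A reached 109 to 161 CPM in the 6 libraries, while secreted liver proteins were low, with ALB at 12.9 to 32.1 CPM. All 9 hepatocyte markers were in the table, and their sum was 259 to 305 CPM in sgControl and 204 to 220 CPM in sgRFX6, with AFP higher and FGB lower past the threshold. The 7 fibroblast and stellate cell markers summed to 51.3 to 60.7 CPM in sgControl and 21.4 to 56.4 CPM in sgRFX6, and 3 of them (COL1A1, COL1A2 and COL3A1) fell. COL3A1 was at 23.0, 27.5 and 26.6 CPM in sgControl and at 0.0993, 0 and 0 CPM in sgRFX6, while LUM was at 19.7, 24.9 and 16.8 CPM in sgControl and at 19.5, 20.6 and 54.7 CPM in sgRFX6 (log2 fold change 0.63, adjusted p 0.530). The leukocyte list summed to 73.6 to 159 CPM in sgControl and 62.7 to 101 CPM in sgRFX6. CD68, at 61.0 to 157 CPM, made up most of this sum, with PTPRC at no more than 0.999 CPM and CD3E at 0 or 1 count. The endothelial list summed to 11.6 to 13.5 CPM in sgControl and 13.3 to 19.6 CPM in sgRFX6. PECAM1, at 11.4 to 19.3 CPM, made up most of that sum, with VWF at no more than 0.561 CPM. The labels name Hep3B cells only. In these bulk samples, fewer cells that express a marker and less RNA per cell cannot be told apart. Library 3 of sgRFX6 stood apart from the other libraries of its group in a way that followed base composition. GC content was that of each gene's longest transcript, compared across the 44 pathway genes that could be tested. The log2 difference of sgRFX6 library 3 from library 1 had a Spearman correlation of -0.85 with this GC content. Its difference from library 2 had a correlation of -0.82, against 0.11 between libraries 1 and 2. The sgControl libraries also differed with GC content, though less. Their correlations were 0.44 (library 2 less library 1), 0.43 (library 3 less library 1) and -0.29 (library 3 less library 2). These are descriptions across genes, which share libraries and are not independent.

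Levels of different genes were compared as CPM per kilobase of exon, averaged over the 6 libraries. On this scale ID1, a BMP target that blocks basic helix-loop-helix factors, stood highest at 626, followed by its relative ID3 at 357. Among the ligands, TGFB1 was the highest at 94.8 CPM per kb, followed by GDF15 at 64.9, INHBB at 38.7, BMP4 at 26.7, BMP6 at 21.0 and BMP2 at 20.2. The order differed between the groups: in sgRFX6 the level of GDF15 (92.8 CPM per kb) was above that of TGFB1 (80), and in sgControl that of BMP6 (28.6) was above that of BMP4 (26.6). Type II TGF-beta receptor TGFBR2 reached 71.9 CPM per kb, more than any other receptor of the list. SMAD3 was the most abundant signalling SMAD at 26.2 CPM per kb, against 4.61 for SMAD4, 4.15 for SMAD1, 3.13 for SMAD5 and 1.54 for SMAD2. The value of SMAD2 was divided by 35303 bases of annotated exon, and without division by length its mean of 48.6 CPM in sgControl was above the 38.2 CPM of SMAD4. Hence most steps of the pathway had a gene that was read well. The lowest levels of the list were those of FST, GREM1, INHA, NOG and INHBA. Other genes of the same roles were read well, namely INHBB among the activin subunits and FSTL3 (19.6 CPM per kb) among the antagonists.

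**Figure D1:**
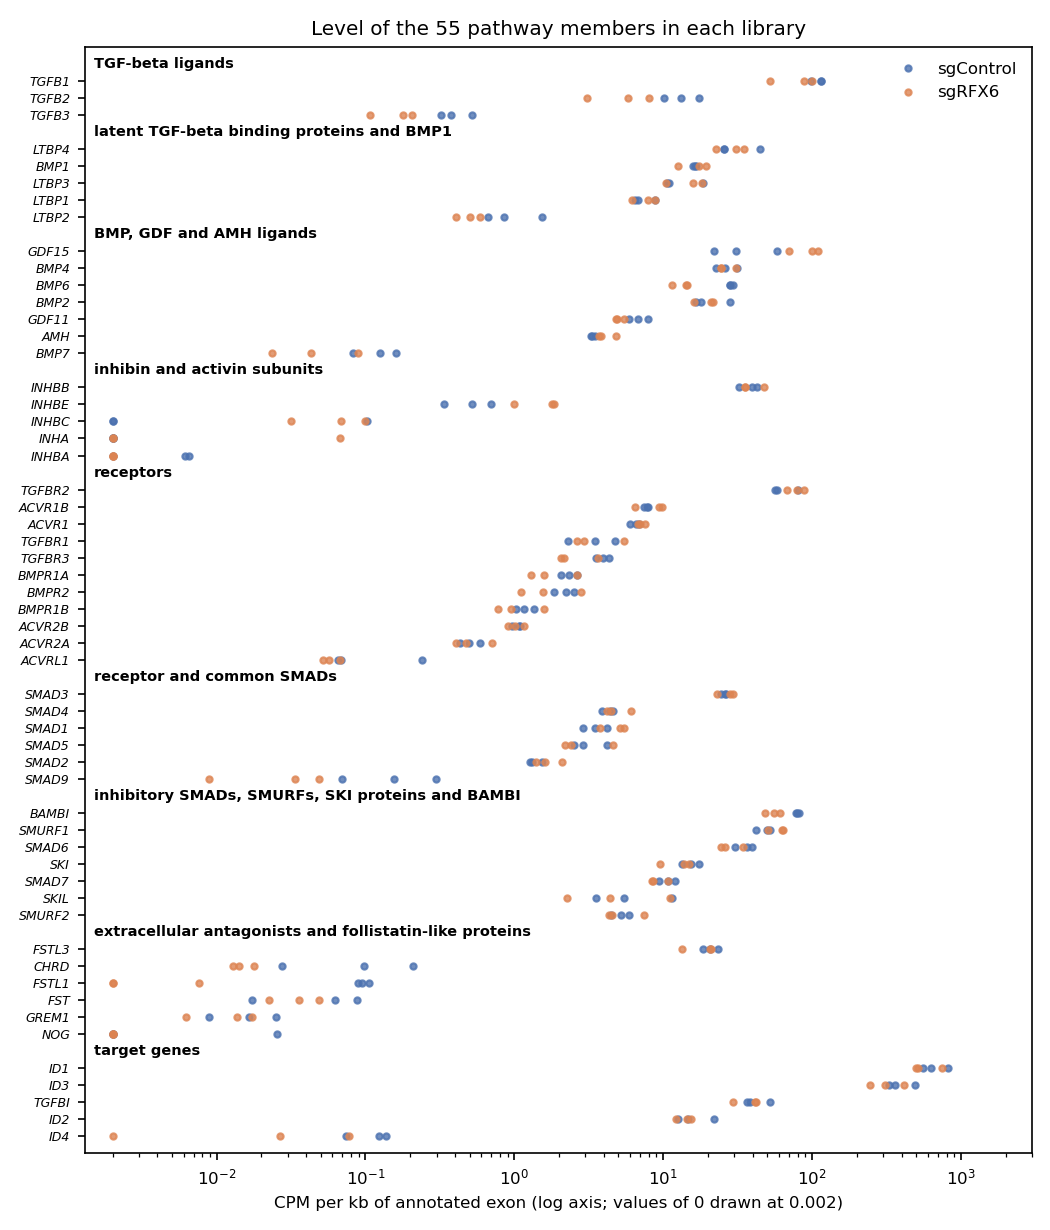
Level of each of the 55 pathway genes, grouped by role, in CPM per kilobase of exon on a log axis, with 1 point per library and group in colour. Values of 0 are drawn at 0.002. ID1, ID3, TGFB1 and TGFBR2 have the highest levels, and INHA, INHBA and NOG lie at or near 0.

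A gene was tested when enough libraries held enough counts, which 44 of the 55 did. BMP6 and FSTL1 passed an adjusted p of 0.05 and both fell in sgRFX6. FSTL1 passed the filter on low counts only through the sgControl libraries. BMP6 and FSTL1 are 2 of 44 (4.55%), beside 3.74% of all 12839 tested genes (1.81% lower and 1.92% higher). At an unadjusted p of 0.05, 9 pathway genes passed (20.5%), 2 higher and 7 lower, beside 15.6% of all genes (8.62% higher and 6.96% lower). The libraries of the groups did not overlap for 10 of the 44 (22.7%), 3 higher and 7 lower, beside 23.1% of all genes (12% higher and 11.2% lower). The log2 fold change was positive for 19 and negative for 25 of the tested members, with a median of -0.09 beside 0.02 over all genes. The shares of pathway genes called and separated were thus near those of all genes. Without sgControl library 3 or sgRFX6 library 1 no pathway gene was called by edgeR, beside 1.62% and 1.66% of all genes called. At an unadjusted p under 0.05 these 2 fits held 9 and 8 of 46 pathway genes, beside 11.93% and 11.88% of all genes. Without sgRFX6 library 2 only BMP6 was called, beside 2.32% of all genes, and without sgControl library 1 there were 3, beside 2.34%. Without sgRFX6 library 3, which followed GC content most strongly, there were 5 (1 higher and 4 lower), beside 5.52% of all genes. Under limma-voom with quality weights, 14 passed, 7 in each direction (31.8%, beside 31.1% of all genes). With the trend with GC content removed, 6 pathway genes passed, 1 higher and 5 lower (13.6%, beside 10.8% of all genes). With a minimum count of 30, FSTL1 was not tested and BMP6 alone passed, 1 of 42 (2.38%, beside 3.43% of all genes). For each gene without overlap, the exact two-sided permutation test of 3 against 3 libraries gave p = 0.1, the smallest that this design allows.

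**Figure D2:**
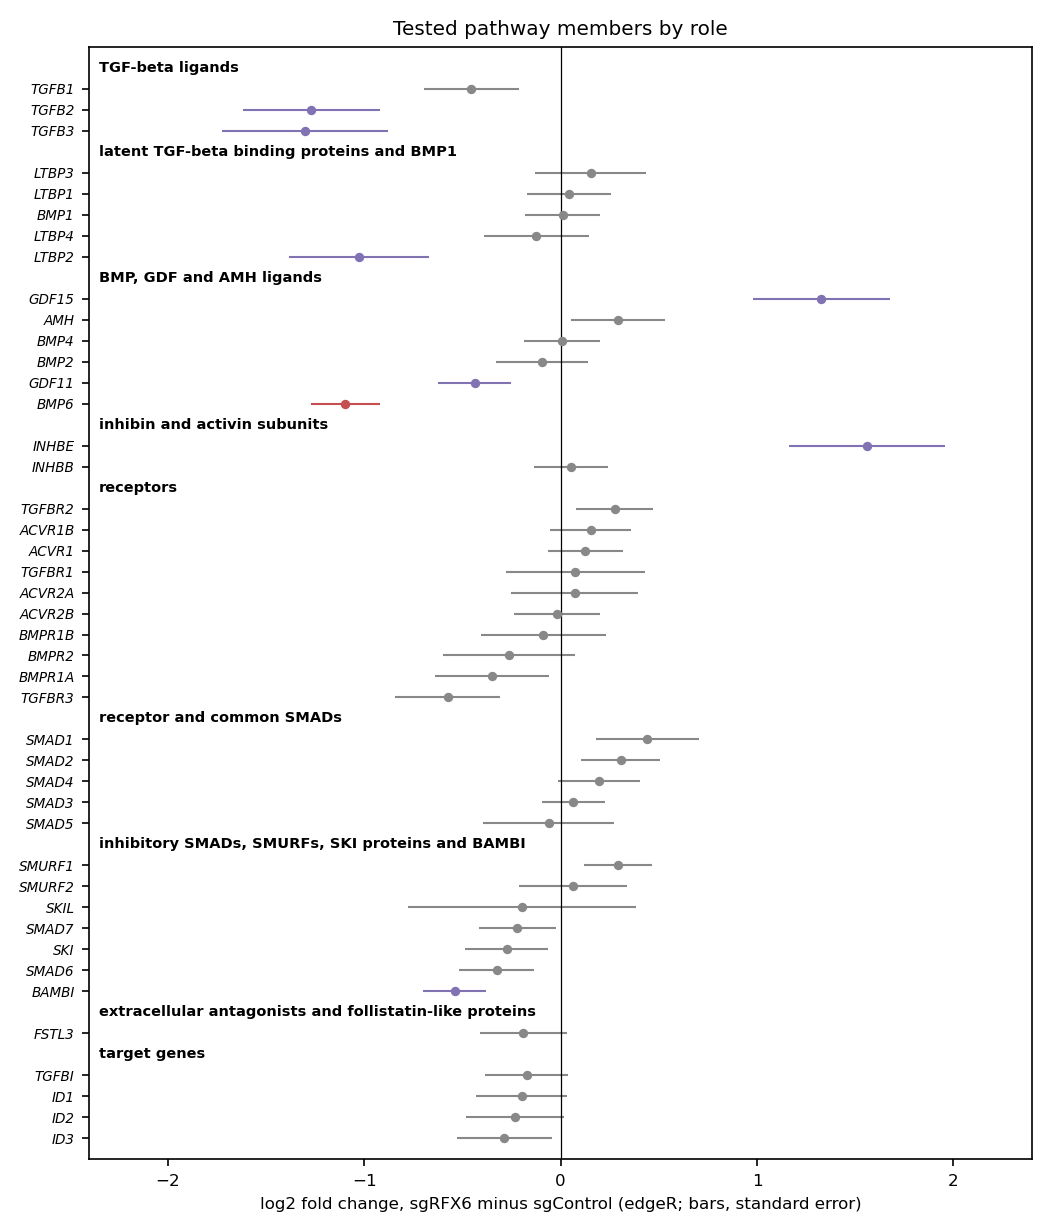
Log2 fold change (sgRFX6 over sgControl) with its standard error for 43 of the 44 tested pathway genes, grouped by role, with red for an adjusted p under 0.05, purple for an unadjusted p under 0.05 and grey for the others. FSTL1 is left out because its fitted value against libraries at 0 depends on the prior count. BMP6 at -1.10 is the only red point, and INHBE at 1.56 and GDF15 at 1.33 are the purple points above 0.

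BMP6 was the pathway gene with the smallest adjusted p. The gene lies at chr6:7726797-7881422 (GRCh38). It was measured at 78.5, 82.2 and 77.6 CPM in sgControl and at 39.9, 31.7 and 39.7 CPM in sgRFX6. All 3 sgRFX6 libraries were thus far below all 3 controls, and the spread within each group was small. The means were 79.4 ± 2.44 and 37.1 ± 4.68 CPM (SD, n = 3), a 2.14-fold fall with a log2 fold change of -1.10 (SE 0.17) and an adjusted p of 0.0107 in edgeR. For the 50 tested genes nearest to it on the chromosome, the median difference on the log2 scale was -0.01. The call was lost, with an adjusted p above 0.05, without sgControl library 3 (0.0684) and without sgRFX6 library 1 (0.0564). The log2 fold changes were then -1.09 and -1.15. Its promoter is printed because it belongs to the pathway gene whose call rests on high counts. The window runs from 250 bases before to 50 bases after the start site in RefSeq, chr6:7725849-7726148 on the plus strand of GRCh38.p14, and the gene start in GENCODE lies 698 bases downstream of the RefSeq one.
BMP6 promoter: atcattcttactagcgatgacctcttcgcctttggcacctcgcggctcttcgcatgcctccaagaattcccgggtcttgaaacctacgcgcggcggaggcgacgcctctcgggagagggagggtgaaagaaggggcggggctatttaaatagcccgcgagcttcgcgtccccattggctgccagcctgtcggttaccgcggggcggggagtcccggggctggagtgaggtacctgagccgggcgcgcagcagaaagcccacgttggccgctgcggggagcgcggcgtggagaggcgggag

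Letters of 3 short motifs were searched on both strands of such windows: GGCGCC, known from BMP-responsive elements, CAGACA, a SMAD element, and GTTGCC, part of the sequence that RFX proteins bind. The BMP6 window held none of them, and its GC content was 66%. The window of FSTL1, the other called gene, held GGCGCC 204 and 165 bases before the RefSeq start site and neither other motif. Its GC content was 73.7%. The gene start of FSTL1 in GENCODE lies 261 bases upstream of the RefSeq one, so both matches lie after the GENCODE start. Of the 55 pathway genes, 48 had a window, and 18 of these (37.5%) held GGCGCC, 8 (16.7%) held CAGACA and 2 (4.17%) held GTTGCC. Among 35116 RefSeq windows of the same length the shares were 19.2%, 16.9% and 12.2%. A match of letters is a description and not a binding site, and GGCGCC windows are rich in GC by construction.

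The other ligands of the BMP, GDF and AMH group gave values in both directions. GDF15, a distant member of the family induced by cell stress, was measured at 70.0, 26.4 and 36.8 CPM in sgControl and at 120, 131 and 83.4 CPM in sgRFX6. All sgRFX6 libraries lay above all controls, but the controls spread widely, with library 1 well above the others. The means of 44.4 ± 22.8 and 111 ± 25 CPM (SD, n = 3) gave a log2 fold change of 1.33 (SE 0.35), which missed the threshold (adjusted p 0.0840, edgeR). GDF11, a ligand that acts through activin receptors, had 51.2, 68.2 and 58.4 CPM in sgControl and 47.1, 42.4 and 41.7 CPM in sgRFX6. Its groups did not overlap, with a log2 fold change of -0.44 and an adjusted p of 0.291, and 4.46% of its exon bases overlap the oppositely oriented gene SARNP. AMH, the anti-Müllerian hormone, was at 6.31, 6.08 and 5.96 CPM in sgControl and 8.74, 6.98 and 6.77 CPM in sgRFX6 (log2 fold change 0.29, adjusted p 0.646). BMP4 differed by 0.01 and BMP2 by -0.10 on the log2 scale, with overlapping libraries, which leaves BMP6 as the only tested BMP ligand with separated groups. BMP7 had too few reads for the test, its control libraries holding 14, 13 and 8 counts against 2, 6 and 4 in sgRFX6. Scaled to the libraries' sizes, its summed counts were 2.47 times higher in sgControl, with a 95% exact interval of 1.25 to 5.22 that covers counting error only.

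**Figure D3:**
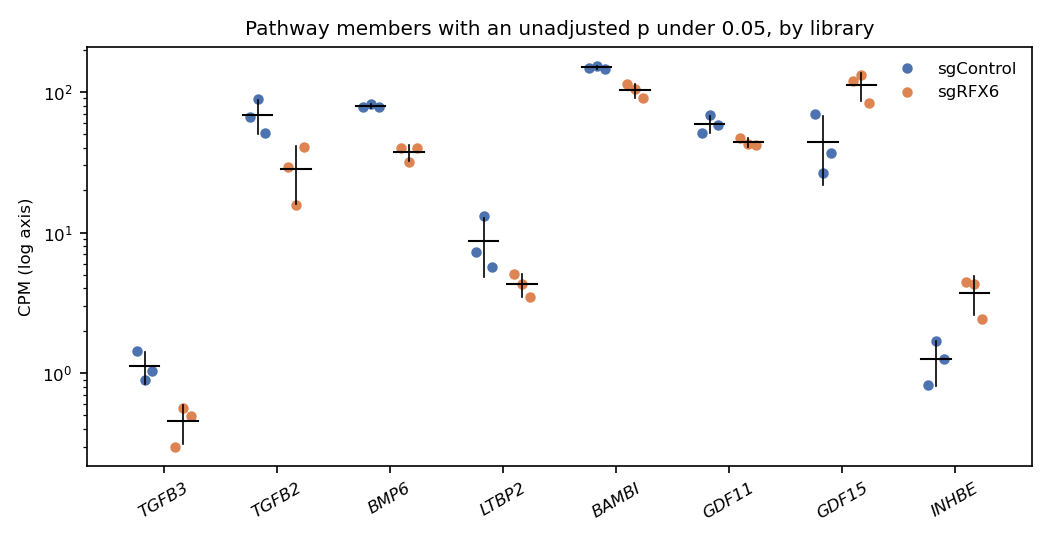
CPM in each library, on a log axis, for the 8 pathway genes other than FSTL1 with an unadjusted p under 0.05, with dots for libraries, a line for the mean and a bar for the SD. The BMP6 libraries form tight, separate groups (77.6 to 82.2 and 31.7 to 39.9 CPM), while TGFB2, GDF15 and LTBP2 spread widely within a group.

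The 3 TGF-beta ligands, which are secreted in a latent form and act through TGFBR1 and TGFBR2, all had negative log2 fold changes, and none passed the adjusted test. TGFB2 was at 66.8, 88.4 and 51.1 CPM in sgControl and at 29.3, 15.6 and 40.6 CPM in sgRFX6. The groups were separate, although sgControl library 3 and sgRFX6 library 3 came close. The log2 fold change was -1.27 (SE 0.35) with an adjusted p of 0.0961 in edgeR, and 26.6% of the exon bases of TGFB2 are shared with the transcript TGFB2-OT1 on the same strand, between which the counting may have split reads. TGFB3 had few reads, at 1.45, 0.891 and 1.04 CPM in sgControl and 0.298, 0.566 and 0.5 CPM in sgRFX6 (log2 fold change -1.30, SE 0.42, adjusted p 0.157). TGFB1, the most abundant of the 3, was at 272, 320 and 319 CPM in sgControl and at 243, 278 and 144 CPM in sgRFX6. Its groups overlapped and sgRFX6 library 3, the library that followed GC content most strongly, was the lowest. The log2 fold change was -0.45 (SE 0.24, adjusted p 0.430), and it was -0.48 with an adjusted p of 0.0306 once the trend with GC content was removed from each library.

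Latent TGF-beta binding proteins tether the latent complex to the matrix, and BMP1 is a protease that cuts procollagens and frees ligands. Of these 5 genes, LTBP2 had separate groups, at 7.32, 13.1 and 5.70 CPM in sgControl and 5.07, 4.34 and 3.45 CPM in sgRFX6. Its log2 fold change was -1.03 (SE 0.36) with an adjusted p of 0.185, sgControl library 2 held the highest value, and the log2 fold change was -0.39 under limma-voom with quality weights. LTBP4, the most abundant of the group, was at 140, 245 and 139 CPM in sgControl and 190, 168 and 123 CPM in sgRFX6 (log2 fold change -0.12, adjusted p 0.901). LTBP1, LTBP3 and BMP1 had log2 fold changes between 0.01 and 0.15. Under limma-voom LTBP3 was at 0.66 (adjusted p 0.00400), and with the regional median removed at -0.22.

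Activins are dimers of inhibin beta subunits. INHBE, the beta E subunit, is a secreted liver protein, and its reads were few, at 17, 42 and 29 in the control libraries and 90, 69 and 53 in sgRFX6. In CPM these were 0.819, 1.70 and 1.25 against 4.47, 4.34 and 2.41, so that every sgRFX6 library lay above every control. The log2 fold change of 1.56 (SE 0.40) was the largest positive one among the tested pathway genes, and the adjusted p was 0.0753. INHBB, far more abundant, was at 126, 103 and 136 CPM in sgControl and 114, 152 and 113 CPM in sgRFX6, with overlapping groups (log2 fold change 0.05, adjusted p 0.945). INHBC had between 0 and 5 counts in any library. INHA and INHBA stayed at or under 3 counts in every library, and no fold is given for them.

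None of the 10 tested receptors passed the unadjusted test in edgeR with all 6 libraries, and none had separate groups. They comprise type I receptors (TGFBR1, BMPR1A, BMPR1B, ACVR1, ACVR1B), type II receptors (TGFBR2, BMPR2, ACVR2A, ACVR2B) and the co-receptor TGFBR3. Log2 fold changes ran from -0.58 for TGFBR3 (adjusted p 0.361) to 0.27 for TGFBR2. TGFBR2 was at 275, 378 and 266 CPM in sgControl and at 374, 320 and 418 CPM in sgRFX6, and its adjusted p was 0.587. In sgRFX6, library 3 was the highest for TGFBR1, TGFBR2, TGFBR3, BMPR1A, BMPR1B, BMPR2, ACVR2A and ACVR2B. Without that library TGFBR3 was called, with a log2 fold change of -0.89 (adjusted p 0.0357, edgeR). Under limma-voom with quality weights, TGFBR3 (-0.97) and BMPR1A (-0.62) passed as lower and TGFBR2 (0.41) and ACVR1B (0.32) as higher, their adjusted p-values being 0.00035, 0.00716, 0.0139 and 0.0453. ACVRL1, a receptor known from endothelial cells, was read 6, 26 and 7 times in sgControl against 6, 4 and 5 times in sgRFX6 and was not tested.

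The signalling SMADs showed the same picture. SMAD3 was at 188, 192 and 177 CPM in sgControl and 212, 204 and 166 CPM in sgRFX6 (log2 fold change 0.07, adjusted p 0.917). Across the 5 tested SMADs the log2 fold changes ran from -0.06 for SMAD5 to 0.44 for SMAD1, and none passed the unadjusted test in edgeR. Under limma-voom with quality weights SMAD1 passed, with a log2 fold change of 0.71 and an adjusted p of 0.0113. SMAD2 (0.31) and SMAD4 (0.20) both lie on chromosome 18, where medians over the 50 tested genes nearest to each were 0.22 and 0.29 on the same scale. SMAD9, which carries BMP signals, was too low for the test, the controls holding 18, 41 and 9 counts against 1, 3 and 6 in sgRFX6. The groups did not overlap, and the summed counts, scaled to library size, were 5.75 times higher in sgControl (95% exact interval 2.95 to 12.5, counting error only), with sgControl library 2 giving most of the reads.

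Among the inhibitors within the cell and at its membrane, BAMBI, a decoy receptor without a kinase domain, had the clearest separation. It was at 149, 153 and 146 CPM in sgControl and at 114, 104 and 89.9 CPM in sgRFX6. Both groups were narrow, at 149 ± 3.29 and 103 ± 12.1 CPM (SD, n = 3). The log2 fold change was -0.54 (SE 0.16) with an adjusted p of 0.118 in edgeR, and the neighbouring genes had a median of -0.16. SMURF1, a ubiquitin ligase that marks SMADs and receptors for breakdown, was at 301, 243 and 285 CPM in sgControl and 362, 363 and 288 CPM in sgRFX6 (log2 fold change 0.29, adjusted p 0.493). The inhibitory SMADs, which the pathway itself induces, had log2 fold changes of -0.33 (SMAD6) and -0.22 (SMAD7), with overlapping groups, and SMAD7 was at 0.04 under limma-voom. SKIL, a SMAD co-repressor rich in AT bases (33.4% GC), was at 82.2, 25.6 and 39.2 CPM in sgControl and at 31.7, 16.3 and 80.3 CPM in sgRFX6. Its spread within each group far exceeded the difference between their means.

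Of the secreted antagonists, only FSTL1 and FSTL3 could be tested. FSTL1 (chr3:120392293-120451253), a secreted glycoprotein made mostly by mesenchymal cells, had exactly 13 counts in each sgControl library and 0, 0 and 1 in the sgRFX6 libraries. In CPM these were 0.626, 0.527 and 0.561 against 0, 0 and 0.045. It was called, with an adjusted p of 0.0140 in edgeR, but it passed the filter on low counts only through the sgControl libraries. Scaled to library size, the 39 counts of sgControl against 1 of sgRFX6 gave a 33.0-fold ratio, with a 95% exact interval of 5.59 to 1337. The call was lost, with an adjusted p above 0.05, without sgControl library 3 (0.0558), sgRFX6 library 1 (0.0706) or sgRFX6 library 2 (0.0512). For the 50 nearest tested genes the median difference on the log2 scale was 0.57, opposite in sign to FSTL1. COL1A1, COL1A2 and COL3A1 of the fibroblast list fell in the same libraries, LUM of that list did not, and the part of this list in the result was not tested. FSTL3, an activin-binding relative of follistatin, was at 50.3, 63.8 and 56.2 CPM in sgControl and 57.0, 55.9 and 36.4 CPM in sgRFX6 (log2 fold change -0.19, adjusted p 0.781). Chordin (CHRD), a BMP antagonist, had 2, 18 and 8 counts against 1, 1 and 1, with a scaled ratio of 7.90 (95% exact interval 2.44 to 40.6, counting error only), and sgControl library 2 held most of its reads. GREM1 and FST had no more than 9 counts in any library, and NOG no more than 1.

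The 4 tested target genes all had negative log2 fold changes, from -0.29 for ID3 to -0.17 for TGFBI, with overlapping groups and adjusted p-values of 0.661 or more. ID1 was at 775, 1016 and 685 CPM in sgControl and 913, 630 and 614 CPM in sgRFX6. ID3 was at 450, 616 and 409 CPM in sgControl and 515, 386 and 307 CPM in sgRFX6. In both genes sgControl library 2 and sgRFX6 library 1 were the highest of their group. The sign of these genes was not stable: under limma-voom with quality weights, ID1, ID2, ID3 and TGFBI had log2 fold changes of 0.20, 0.05, 0.15 and 0.13. ID4 had 6, 8 and 4 counts against 0, 1 and 4 and was not tested.

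A wider list of 75 further pathway genes was also read, of which 65 were in the table and 46 were tested. Of these, 6 passed an adjusted p of 0.05 (13%, beside 3.74% of all genes), 1 higher and 5 lower, and 20 had separate groups (43.5%, beside 23.1%). The median log2 fold change of the 46 was -0.06. This list was chosen with earlier results of these data known, so its shares cannot show that the pathway differs from other genes. None of the 9 further ligands in the table had enough reads to be tested, and none of the 4 tested further receptors was among the 6. The number that passed was 3 without sgControl library 3, 4 without sgControl library 2 or sgRFX6 library 1, and 5 or 6 without each of the others, while the share of all genes called ran from 1.62% to 5.52% over these 6 fits. It was 13 with the trend with GC content removed, 5 higher and 8 lower, beside 10.8% of all genes.

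Extracellular regulators among the 6 were SOST and FURIN. SOST encodes sclerostin, a bone protein of the DAN family best known as a Wnt antagonist. It was at 64.5, 105 and 38.5 CPM in sgControl and at 2.63, 1.13 and 1.91 CPM in sgRFX6, a 36.3-fold fall with a log2 fold change of -5.18 (SE 0.47, adjusted p 0.00107, edgeR). FURIN, the protease that cuts TGF-beta and BMP precursors into their mature form, was at 174, 213 and 157 CPM in sgControl and 93.3, 75.7 and 59.0 CPM in sgRFX6. Its log2 fold change was -1.25 (SE 0.21, adjusted p 0.0144). SOST and FURIN passed under all 15 alternative settings.

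Intracellular regulators among the 6 were PMEPA1 and TGIF2. PMEPA1, a TGF-beta-induced membrane protein that holds back SMAD2 and SMAD3, was the one that rose, from 1.20, 1.74 and 1.64 CPM in sgControl to 11.2, 7.67 and 7.45 CPM in sgRFX6. This 5.71-fold rise had an adjusted p of 0.00342 and held under all 15 settings, and the antisense transcript NKILA covers 6.10% of its exon bases. TGIF2, a repressor that binds SMADs, was at 26.5, 30.7 and 28.7 CPM in sgControl and 15, 13.4 and 10.9 CPM in sgRFX6 (log2 fold change -1.13, adjusted p 0.0246), and it shares 8.14% of its exon bases with the read-through gene TGIF2-RAB5IF.

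Target genes among the 6 were ATOH8 and COL1A1. ATOH8, a helix-loop-helix factor induced by BMP signals in hepatocytes, was at 73.1, 113 and 68.3 CPM in sgControl and at 45.0, 30.4 and 26.3 CPM in sgRFX6 (log2 fold change -1.33, adjusted p 0.0334). COL1A1, a fibrillar collagen chain that also stands in the fibroblast list, was at 5.45, 4.78 and 5.27 CPM in sgControl and 1.09, 1.70 and 0.908 CPM in sgRFX6 (log2 fold change -2.08, adjusted p 0.0108). TGIF2 and ATOH8 each passed in only 1 of the 6 fits that left out a library, with adjusted p-values up to 0.119 and 0.106, and COL1A1 in 4 of the 6, up to 0.0650. HAMP, which encodes hepcidin, did not pass and was chosen after its values were seen. It was read 8, 87 and 5 times in sgControl against 32, 16 and 10 times in sgRFX6, and sgControl library 2 set most of the control mean.

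**Figure D4:**
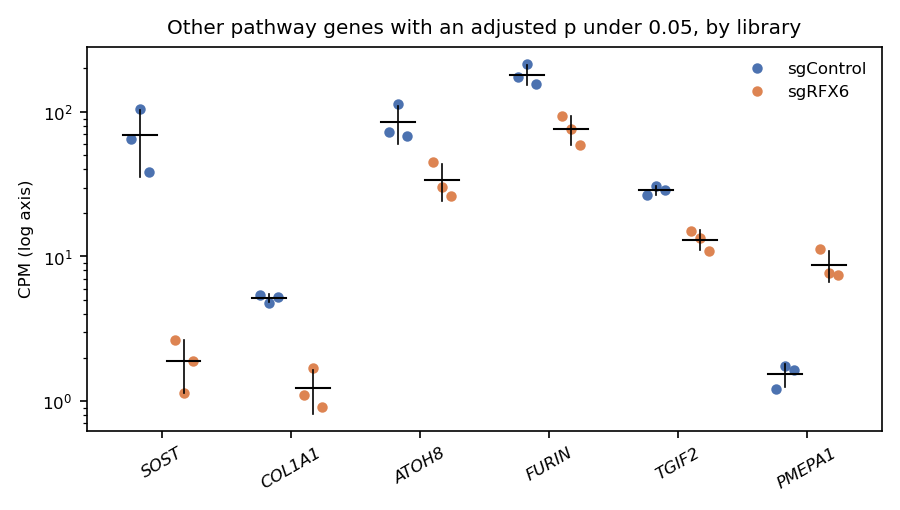
CPM in each library, on a log axis, for the 6 genes of the wider list with an adjusted p under 0.05, with dots for libraries, a line for the mean and a bar for the SD. The groups are separate for each gene, furthest apart for SOST, and PMEPA1 is the one gene with sgRFX6 above sgControl.

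How far the pathway genes depended on the settings differed from gene to gene. BMP6 passed under 13 of 15 alternatives, with log2 fold changes between -1.15 and -1.0, and FSTL1 under 11 of the 14 that tested it. INHBE and TGFB2 passed under 5 of 15, GDF15 under 4, BAMBI under 2 and TGFB1 under 1. The log2 fold change of GDF15 ran from 1.06 without sgControl library 2 to 1.82 without sgControl library 1.

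**Figure D5:**
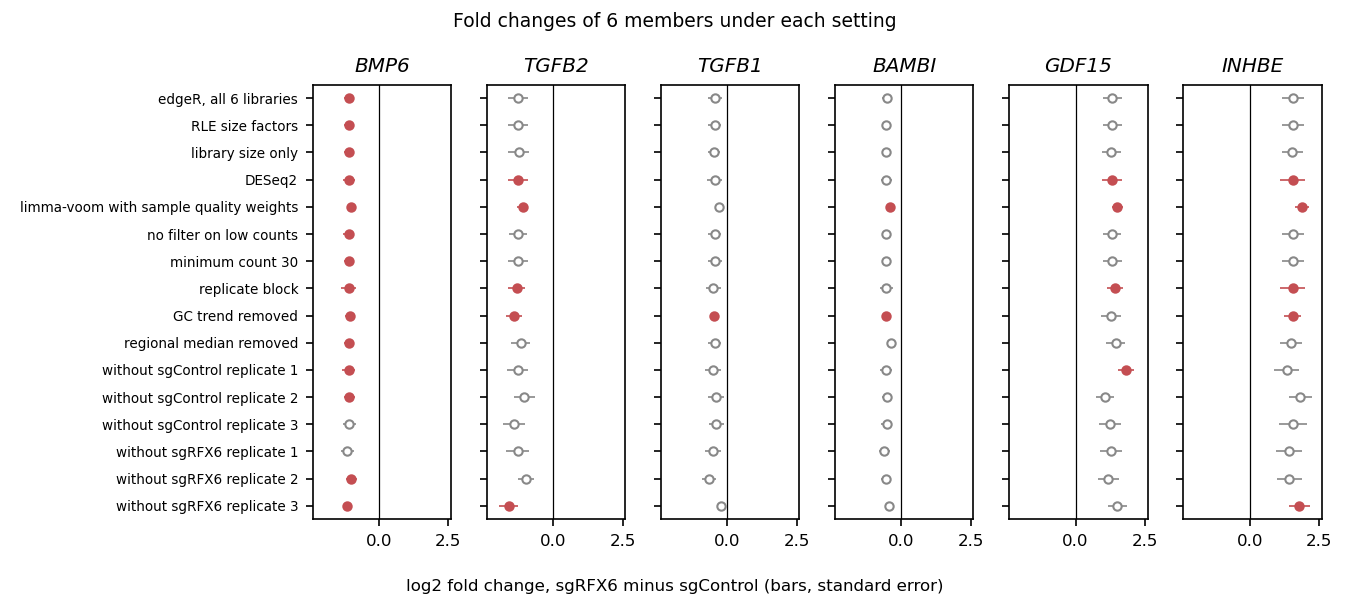
Log2 fold change (sgRFX6 over sgControl) with its standard error for BMP6, TGFB2, TGFB1, BAMBI, GDF15 and INHBE as reported and under 15 alternative settings, with filled red points for an adjusted p under 0.05. No point crosses 0, and BMP6 stays between -1.15 and -1.0, while the other genes pass the threshold only under some settings.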

How the data were processed

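RNA from 6 Hep3B samples was extracted with Trizol and sequenced by Illumina chemistry. The values deposited by the authors are raw counts per gene symbol, not normalised. The submitters' notes name the build GRCh38 (hg38), while the aligner, the counter, the gene annotation and the strand setting are not given in the sources used here. The control columns carry a name of their own for Cas9 and were matched to sgControl, the only control group. The table had 16721 rows, of which the row without a name held at most 9.17e-05% of a library and was left out.

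The counts went through edgeR 4.0.16 (R 4.3.3), with filterByExpr (minimum count 10, minimum total 15), TMM scaling and the quasi-likelihood test of the 3 sgRFX6 against the 3 sgControl libraries without covariates, with Benjamini-Hochberg adjustment over 12839 genes and a threshold of 0.05. SE is the absolute log2 fold change divided by the square root of F. The common biological coefficient of variation was 0.269. CPM used the TMM-scaled library sizes. Fold changes quoted beside CPM values come from the fit. Exact intervals of count ratios and the floor of 3 counts cover counting error only. Replicate libraries differed by more than sampling noise, their chi-square divided by its degrees of freedom lying between 16.9 and 122, and each counted as 1 sample.

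Positions, exon lengths and GC content came from GENCODE 29 for GRCh38, and no source names the annotation that the authors counted on. It matched 15417 rows by name and 260 by a synonym, and 1044 rows stayed unmatched. Promoter windows came from RefSeq. The neighbour median is over the 50 nearest tested genes. The scripts were tested on simulated data.

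The pathway members and the other lists were chosen with earlier results of these data known. Values in every library were given for members with an adjusted, then an unadjusted, p under 0.05 and for the member with the highest level per kilobase in each role. Of the wider list, genes with an adjusted p under 0.05 were named. Of the 15 alternatives, 6 left out a library. The others included DESeq2 1.42.0, limma-voom 3.58.1 with quality weights, other filters and scalings, a replicate block and removal of the trend with GC content.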

Additional observations from a re-analysis of the deposited data

How the results depend on the processing

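The number of pathway genes called, 2 as reported, was 5 with DESeq2, 14 with limma-voom and quality weights, 1 with a minimum count of 30, 6 with the trend with GC content removed, and 0 to 5 when 1 library was left out. With DESeq2 the 5 were 10% of the 50 tested, beside 6.44% of all 14108 genes. With the GC trend removed the 6 were 13.6%, beside 10.8% of all genes. Over all genes, 480 calls became 908 with DESeq2, 3998 with limma-voom, 1390 with the GC trend removed and 212 to 718 with a library left out. In the wider list, 6 calls became 12 of 53, 20 of 46 and 13 of 46 tested genes under the first 3 of these and 3 to 6 with a library left out. Under limma-voom 31.8% of the pathway genes passed beside 31.1% of all genes. The difference in RFX6 on the log2 scale was -0.96 (adjusted p 0.00274) under limma-voom, -0.85 (adjusted p 0.0489) with the GC trend removed, and -0.89 to -0.67 with a library left out. The cause of these differences was not tested. RLE size factors, library sizes alone, no filter on low counts and removal of the regional median each kept 2 called pathway genes, BMP6 and FSTL1. Over the 44 tested genes and the alternatives, 658 values were obtained, of which 61 had the other sign, 5 lost a call and 26 gained one. The sign was the same throughout for 21 genes.

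With the replicate number as a block, 5 of 44 pathway genes passed (BMP6, FSTL1, GDF15, INHBE and TGFB2). These 11.4% stand beside 5.05% of all genes (648 of 12839), and 9 of 46 tested genes of the wider list passed. The numbers are not stated to pair the samples, and same-numbered libraries had correlations of -0.41, 0.17 and -0.09 between their deviations from the group means, with no library closest to its own number. At these depths 11 of the 55 genes, with no more than 41 counts in any library, could not be tested.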
